A study of Mus musculus with 4 samples.

Results

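At 1 h, dentate gyrus RNA of mice given MK-801 and of mice given saline was set against each other on 1 two-colour microarray. The values on that array, gene by gene and by gene family, are described here. The members are all features (spots of the array) with a non-zero value at 1 h, which were 12131 of the 16281 features in the table. Of these, 10606 carried a single gene symbol, and together they measured 8747 genes. The animals were young male C57BL/6J mice. The saline group received 5 µL per g body weight and its RNA was labelled with Cy3. The MK-801 group received 300 µg per g body weight and its RNA was labelled with Cy5. That dose is printed as labelled. It lies far above the doses usually given to mice, and its unit could not be checked here. The labels time the RNA from the last shock that MK-801 mice received, yet name control mice as the source of both RNAs, so it is not settled whether the mice on this array were shocked. How many mice gave RNA to each channel is not stated. The other arrays of the series, at 2, 4 and 6 h, had the same layout, with 1 array for each time and no dye swap.

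MK-801 (dizocilpine) enters the open channel of the NMDA-type glutamate receptor and blocks it. This receptor admits calcium when glutamate binds while the cell is depolarised, and the calcium signals onward through calmodulin-dependent kinases and calcineurin to the nucleus. In the dentate gyrus, the first station of the hippocampal circuit, granule cells receive this input from the entorhinal cortex. Immediate early genes such as Fos, Egr1 and Arc are switched on by such signals within minutes and are widely used as marks of recent activity.

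Each value is a log ratio of the 2 channels, read here as log2 and centred on the median of the array, which was 0.0074 before centring. Neither the log base nor the direction of the ratio is stated. If the values are natural logarithms, every size below is too small by a constant factor. A positive value may mean more RNA in the MK-801 channel or more in the saline channel, so genes are described by the sign of the deposited value and not as raised or lowered by MK-801. An exact 0 filled 25.5% of the features and was treated as no value. The table holds no intensities, so a marker gene can show here that the channels differed but not that the gene was expressed, and the labelled tissue could not be checked against its markers. Without a replicate there is no error for a single ratio. The precision is limited by the number of arrays, and the error estimates below come from several features of 1 gene or from the later arrays.

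Large positive ratios outnumbered large negative ones. The SD over features was 0.37, and the values ran from -2.26 to 2.06. At or above 1, which is a 2-fold difference between channels, stood 208 features (1.71% of those with a value). At or below -1 stood 50 features (0.412%). Counted by gene, with several features of a gene averaged, 112 genes (1.28%) reached 1 or more and 37 (0.423%) reached -1 or less. At 0.5, which is 1.41 times, the positive side held 1095 features (9.03%) and 658 genes (7.52%), and the negative side held 773 features (6.37%) and 469 genes (5.36%). The median gene stood at -0.0025 with quartiles of -0.20 and 0.21, and 49.6% of genes were positive.

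Most of the large positive ratios came from features that gave no value later. Of the 1065 features with a value at 1 h and on none of the later arrays, 120 (11.3%) stood at 1 or higher and 3 at -1 or lower, and their median was 0.42. The 1405 features with a value on 1 later array had a median of 0.06 and 37 values at or above 1. The 884 features on 2 later arrays had a median of 0.03 and 23 such values. The 8777 features with a value on all 4 arrays had a median of -0.03, with 28 (0.319%) at 1 or higher and 31 (0.353%) at -1 or lower. The positive excess was thus absent from the features measured throughout. Why features lacked a value later was not tested.

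**Figure D1:**
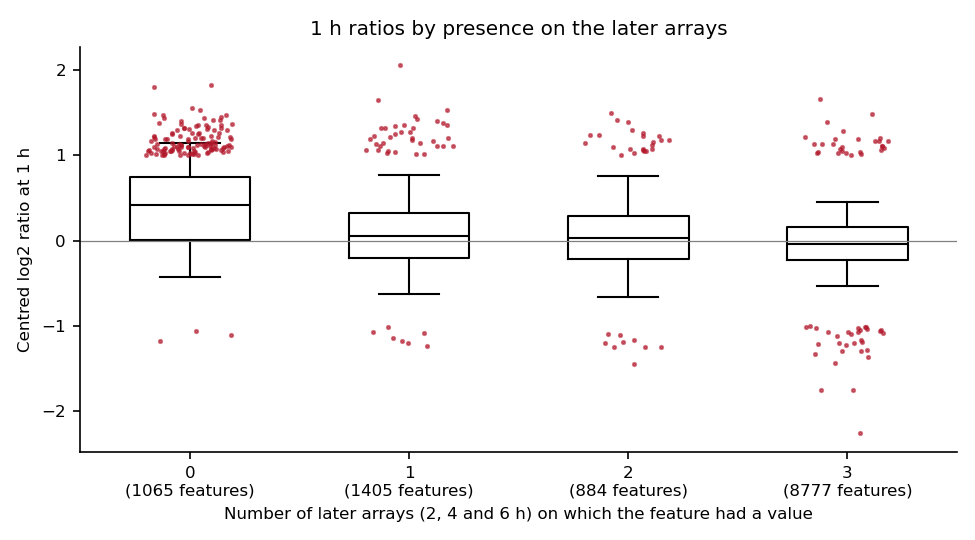
Centred log2 ratio at 1 h (vertical axis) of all 12131 features with a value, by the number of later arrays on which the feature also had one (horizontal axis). Boxes give quartiles and median, whiskers the central 90 percent of features, and red points the features at or beyond 1 in either direction, spread sideways for visibility; the median drops from 0.42 with no later array to -0.03 with 3.

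Features of the same gene agreed only a little more often than not. Several features were measured for 1685 genes, and 54.8% of their 2151 pairs had the same sign. Among the 618 pairs with at least 1 feature beyond 0.5 in either direction, 52.1% did. The median SD over the features of a gene was 0.23. For the 1084 pairs measured on all 4 arrays, leaving out Gapdh, 54.2% had the same sign on the 1 h array, against 58.0%, 62.9% and 62.7% on the arrays of 2, 4 and 6 h. The 1 h array therefore had the lowest of the 4 shares. With values limited to -1 to 1, the correlation between those features of a gene was 0.14 at 1 h. Between features of neighbouring numbers in the table, whatever their gene, it was 0.15, and 0.04 at a distance of 10 numbers. So features of 1 gene agreed no better than neighbours in number. The part of feature order in the same-gene agreement was not tested. A gene measured by 1 feature alone is to be read with that in mind, and 32 genes had several features all at or above 0.5 while 13 had all at or below -0.5. None of these genes had all its features past 1 in either direction.

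Gapdh, a glycolytic enzyme often used as a reference, had 17 features at 1 h. Over the 15 of them measured on all 4 arrays the mean was -0.26 ± 0.09 (SD over features, n = 15 features of 1 array), from -0.45 to -0.08. The same features averaged 0.47, 0.39 and 0.35 on the arrays of 2, 4 and 6 h. All 15 were negative at 1 h, and the Gapdh mean was positive on every later array. In the limma test of 1 h against the later times, described further on, the Gapdh difference was -0.66 ± 0.11 (SE) with an adjusted p of 0.0275, and it passed under 6 of 10 alternative settings. The remaining pair of features, which lacked values at 2 and 6 h, read -0.03 and 0.39 at 1 h and -2.59 and -2.54 at 4 h, apart from the others. The features share the gene and the array and are not biological replicates.

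Among genes whose features all had the same sign, ranked by the weakest feature, the 15 highest began with Trhr2, Xcr1 and Tgfbr1. Trhr2, a receptor for thyrotropin-releasing hormone, read 0.83 and 0.97. Xcr1, a chemokine receptor, read 0.78 and 1.05. Tgfbr1, a receptor subunit for TGF-beta, read 0.76 and 0.81. After Lrmp, Sycp3 and Slc66a2 came Cxcl5, a neutrophil-attracting chemokine, with 0.70 and 0.78. Tob2, an antiproliferative protein that acts on mRNA decay, read 0.70 and 0.71. Clec4f, a lectin of liver macrophages, read 0.66 and 2.06, the latter being the highest value of the array. The rest were Calr3, Ms4a1, Il1rl2, Trim59, Hspa1b and Pdc. Trhr2, Sycp3 and Il1rl2 had no value on any later array, and of the 15 genes only Hspa1b had a value on every array for all its features.

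The 15 lowest were a mixed group with more complete data. Tipin, a component of the replication fork, read -0.86 and -0.76. Doc2b, a calcium sensor of vesicle release, read -1.11 and -0.63. Id2, an inhibitor of basic helix-loop-helix transcription factors, read -0.92 and -0.53. Dpp6, an auxiliary subunit of A-type potassium channels, read -0.95 and -0.48. Cdk7, the kinase of the general transcription factor TFIIH, read -0.80 and -0.52. The cytokine Ccl19 read -0.65 and -0.57. Thg1l, Cd99, Mtx1, Ppp1r35, Psg16, Fndc4, Ei24, Hhex and Myh7 completed the group, the last with 3 features from -0.93 to -0.47.

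**Figure D2:**
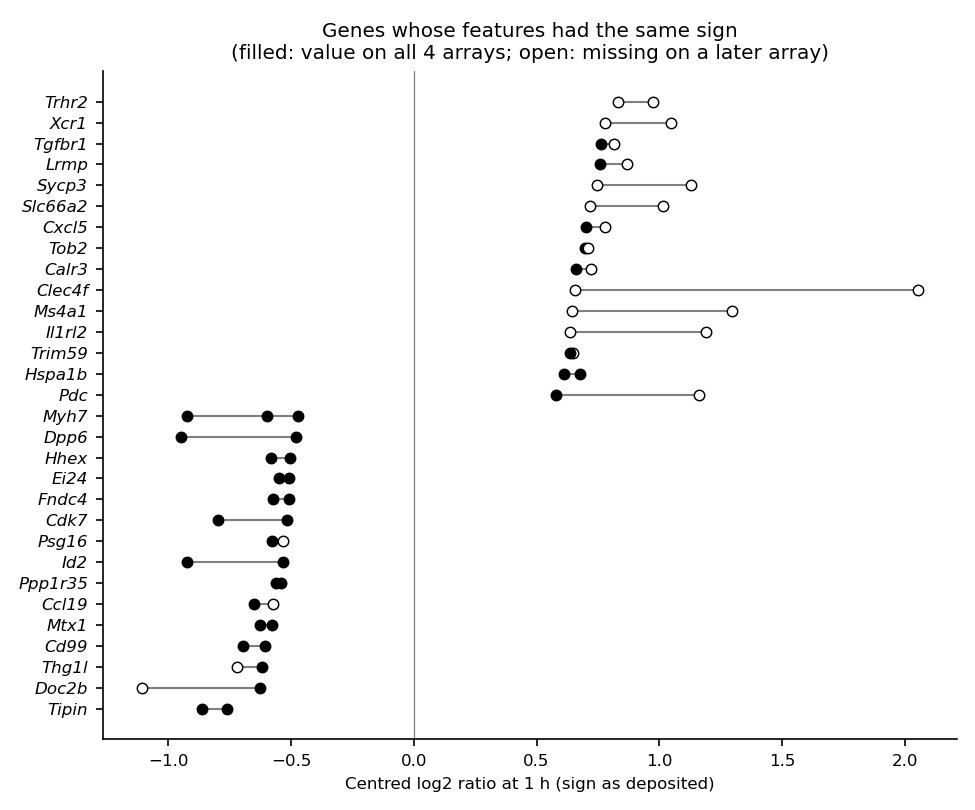
Each feature's centred log2 ratio at 1 h (horizontal axis) for the 15 highest and 15 lowest genes whose features agreed in sign (vertical axis). Filled points had a value on all 4 arrays and open points lacked one on some later array; open points are common among the positive genes, as for Trhr2 at 0.83 and 0.97, and rare among the negative ones.

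Of the 10 genes with 1 feature and the highest values, 5 had no value on any later array (Aipl1, Tank, Ly9, Grap and N4bp1). Aipl1, a photoreceptor chaperone, stood at 1.80 and Meox1, a homeobox factor of somites, at 1.65. Tank, an adaptor of TRAF signalling, stood at 1.56. Ly9 and Lelp1 both stood at 1.53, Grap at 1.49, Cbx2 at 1.46 and N4bp1 at 1.43, with Krtap17-1 between Lelp1 and Grap. Where later values existed, Meox1 read -0.64 at 2 h, Lelp1 -0.52 at 6 h and Cbx2 0.11 at 2 h, and Krtap17-1 read -0.44 at 4 h and -1.25 at 6 h. Alpl, the tissue-nonspecific alkaline phosphatase, read 1.49 and was the only one of these 10 with a value on every array, with -0.64, -0.53 and -0.13 at 2, 4 and 6 h.

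The lowest values belonged mostly to features measured throughout. Crim1, a transmembrane protein that binds BMP ligands, read -2.26 at 1 h and -0.12, 0.55 and 0.01 at 2, 4 and 6 h. Nts, the precursor of the peptide neurotensin, read -1.75 at 1 h and 0.26, 0.35 and 0.46 later. Both stood far below their later values. Sdc3, the neuronal heparan sulfate proteoglycan syndecan-3, read -1.75 but was lower still afterwards, with -3.35, -3.84 and -3.25. Rfc4, a subunit of the clamp loader of DNA replication, read -1.33. The others were Zfr at -1.44, Tex47 at -1.43, Elf2 at -1.28, Slc29a2 and Vamp3 at -1.25 each and Terf1 at -1.24.

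Genes of the unfolded protein response ranged from -0.23 to 1.32. The unfolded protein response senses misfolded protein in that organelle through 3 membrane sensors and raises chaperones and folding enzymes. Of 19 measured genes of this response, 12 were positive, 5 were at or above 0.5 and 0 at or below -0.5. The list's median was 0.06 against -0.0025 over all genes, of which 7.52% stood at or above 0.5. Hyou1, an ATP exchange factor for the main chaperone, read 1.32 and the sensor kinase Eif2ak3 (PERK) read 1.20. Neither had a value on any later array, and features of that kind had a median of 0.42. Manf, a secreted protein of this stress response, read 0.76 at 1 h and -0.04, 0.30 and 0.16 at 2, 4 and 6 h. Hspa5, the main chaperone itself (BiP), read 0.59 at 1 h and 0.18, 0.23 and 0.06 later. Creld2 read 0.56 at 1 h and -0.04, 0.16 and 0.15 later. Manf, Hspa5 and Creld2 each had their highest value at 1 h. Herpud1 stood at 0.40, and Xbp1, a transcription factor of the response, at 0.33 and 0.42 on its features. The rest were near 0 or negative, among them Hsp90b1 at 0.01, Calr at 0.01 and Dnajc3 at -0.03, and Asns was lowest at -0.23. In the limma test against the later times 0 of 17 tested members passed (4 were higher and 0 lower at an unadjusted p under 0.05), with adjusted p of 0.0536 for Manf, 0.0634 for Hspa5 and 0.0652 for Creld2. At the unadjusted threshold 1004 of all 6661 tested genes were higher and 1316 lower.

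The promoters of this list were searched for the endoplasmic reticulum stress element, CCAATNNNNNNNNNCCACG, on both strands, in the 250 bases before each start of transcription given by RefSeq (GRCm38.p6). The element was present in 37 of 32851 windows (0.113%) and in 5 of the 17 list members with a window. These were Hspa5, Creld2, Dnajc3, Calr and Hsp90b1. Their median ratio was 0.01, against 0.02 for members without it, so the element did not separate high from low members. The windows of the pair with high values and of Hsp90b1, which holds 2 copies at a ratio of 0.01, are shown 5′ to 3′ along the gene, with the element in capitals on whichever strand it lies. They lie at chr2:34771840-34772089 (plus strand, Hspa5), chr15:88819396-88819645 (plus strand, Creld2) and chr10:86705445-86705694 (minus strand, Hsp90b1).
Hspa5: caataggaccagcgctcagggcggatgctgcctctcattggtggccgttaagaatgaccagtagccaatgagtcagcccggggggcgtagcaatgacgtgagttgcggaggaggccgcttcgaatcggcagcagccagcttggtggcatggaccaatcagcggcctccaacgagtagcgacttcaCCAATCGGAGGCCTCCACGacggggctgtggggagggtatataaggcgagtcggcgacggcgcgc
Creld2: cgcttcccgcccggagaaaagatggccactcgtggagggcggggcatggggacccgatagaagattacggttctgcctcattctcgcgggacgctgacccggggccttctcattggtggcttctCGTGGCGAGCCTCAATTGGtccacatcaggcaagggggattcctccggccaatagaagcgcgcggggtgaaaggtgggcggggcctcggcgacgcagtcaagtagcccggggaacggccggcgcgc
Hsp90b1: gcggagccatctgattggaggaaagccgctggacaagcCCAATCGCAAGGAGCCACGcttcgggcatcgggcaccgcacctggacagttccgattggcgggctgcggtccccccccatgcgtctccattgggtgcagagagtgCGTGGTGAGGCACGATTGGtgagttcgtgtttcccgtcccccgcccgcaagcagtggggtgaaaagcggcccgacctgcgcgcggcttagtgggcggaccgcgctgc
A match of letters describes the sequence and is not evidence of binding.

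Heat shock proteins and chaperones as a wider list had more positive than negative values. Of 63 measured genes, 43 were positive, 6 stood at or above 0.5 and 1 at or below -0.5, with a median of 0.11. Over all genes, 49.6% were positive, 7.52% stood at or above 0.5 and 5.36% at or below -0.5. Hspa14 read 1.22 and Bag5 1.01, both without a value later, and Hyou1 belongs to this list too. Hspa1b, the inducible HSP70, read 0.61 and 0.68, and its neighbour gene Hspa1a, of nearly the same sequence, read 0.47. The small heat shock protein Hspb1 read 0.57 and the muscle relative Hspb3 was lowest at -0.70. In the limma test, Hspa1b and Bag3 passed as higher at 1 h, and Cdc37 and Dnajb2 as lower, of 54 tested, which is 3.70% each way against 5.28% and 6.25% of all genes. The Hspa1b call came from 1 feature, number 15862, which read 0.61 at 1 h and -1.54, -2.29 and -1.93 later. The other feature, number 14566, read 0.68, 0.10, 0.13 and -0.14. Both features were positive at 1 h, and only the first was far below 0 later.

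Immediate early genes had wide scatter and more positive than negative values. Of 48 measured genes, 32 were positive, with a median of 0.16. Past 0.5 stood 7 on the positive side and 5 on the negative side, against 7.52% and 5.36% of all genes. Over the 41 genes measured on all 4 arrays the median was 0.21, against -0.03 for all genes. Among transcription factors, Nr4a1, an orphan nuclear receptor, read 0.63 at 1 h and -0.13, -0.28 and -0.36 at 2, 4 and 6 h. Klf4 read 0.69 at 1 h and 0.13, 0.15 and 0.37 later. Both were higher at 1 h than on any later array. Jun read 0.42 at 1 h and -0.19, -0.23 and 0.01 later. Junb read 0.35 at 1 h and -0.24, -0.29 and -0.24 later. Egr1 read 0.16 at 1 h and -0.37, -0.68 and -0.53 later. These 3 genes shared the pattern of positive values at 1 h that were not kept.

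Fos, a subunit of the AP-1 transcription factor, was measured by a pair of features that did not agree. Feature 15860 read 1.17 at 1 h and -1.06, -1.17 and -1.01 at 2, 4 and 6 h. Feature 13010 read 0.11, 0.02, 0.01 and 0.02. The Fos mean of 0.64 therefore came almost wholly from 1 feature. That feature lies among numbers 15600 to 15899, which hold 1.74% of the 8777 features measured on all 4 arrays but 22 of the 42 features whose later mean was at or below -1. The Hspa1b feature 15862 and the features of Sdc3, Car1, Ccn1, Nr4a1 and the NMDA receptor subunit gene Grin2a lie there as well. Where these numbers lie on the slide is not given, and the part of feature number in these values was not tested.

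Immediate early genes that do not encode transcription factors lay on both sides of 0. Arc, a synaptic protein that drives removal of AMPA receptors, read 0.51 at 1 h and -0.01, -0.21 and -0.19 later. Ccn1, a secreted matrix protein, read 0.71 at 1 h and 0.05, -0.15 and -0.21 later. Gem, a small GTPase that curbs calcium channels, had 0.56 and 0.71 on its features at 1 h. The phosphatases that switch off MAP kinases read 0.49 for Dusp6 and 0.36 and 0.46 for the features of Dusp1. The growth factor Bdnf read -0.0045 and 0.73 on its features, and the 4 features of Homer1, a postsynaptic scaffold, ran from -0.50 to 0.61. Pim1, a kinase, was highest at 1.21 but had no value later. The negative end held Fosl2 at -1.07, Ier3 at -0.68, Myc at -0.64 and Nr4a2 at -0.86 and -0.32 on its features. The period gene Per1 also read below 0, at -0.53 and -0.36. Sgk1 stood at -0.17 and Ier2 at 0.10. Fosb, Egr2 and Npas4 had no value at 1 h.

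The CRE half-site TGACG, the core of the element that the activity-regulated factor CREB recognises, was searched in the same windows on both strands. It lay in 17.8% of all 32851 windows, in 1901 of the 6981 measured genes with a window, and in 22 of the 37 immediate early genes with one (59.5%). The immediate early genes with the half-site had a median ratio of 0.28 and those without it -0.05. Over all measured genes the medians were -0.0088 with it and -0.0023 without it. So the half-site was common in this list, and over all genes it went with no shift of the ratio. The full palindrome TGACGTCA, which contains a half-site on each strand, was in 4 of the 37, namely Btg2, Dusp1, Pcsk1 and Plk2. Windows of a pair of genes that passed the test below are shown with the half-site on either strand in capitals, at chr12:85473640-85473889 (plus strand, Fos) and chr15:101266596-101266845 (plus strand, Nr4a1).
Fos: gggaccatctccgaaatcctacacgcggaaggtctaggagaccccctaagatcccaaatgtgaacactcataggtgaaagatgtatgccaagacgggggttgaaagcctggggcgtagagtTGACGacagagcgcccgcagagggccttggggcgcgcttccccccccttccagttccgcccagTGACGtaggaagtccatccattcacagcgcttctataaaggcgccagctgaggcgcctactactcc
Nr4a1: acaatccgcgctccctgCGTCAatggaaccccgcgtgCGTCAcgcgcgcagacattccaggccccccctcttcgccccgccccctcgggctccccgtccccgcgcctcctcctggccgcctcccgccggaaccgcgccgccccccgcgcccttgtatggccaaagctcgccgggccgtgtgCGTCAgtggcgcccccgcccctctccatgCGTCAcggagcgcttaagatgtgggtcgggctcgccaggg
The site of Fos nearest to the start lay 66 bases before it and that of Nr4a1 40 bases before it. Both genes have a feature among the numbers 15600 to 15899 described above. With those numbers left out, Fos did not pass and Nr4a1 had no feature.

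**Figure D3:**
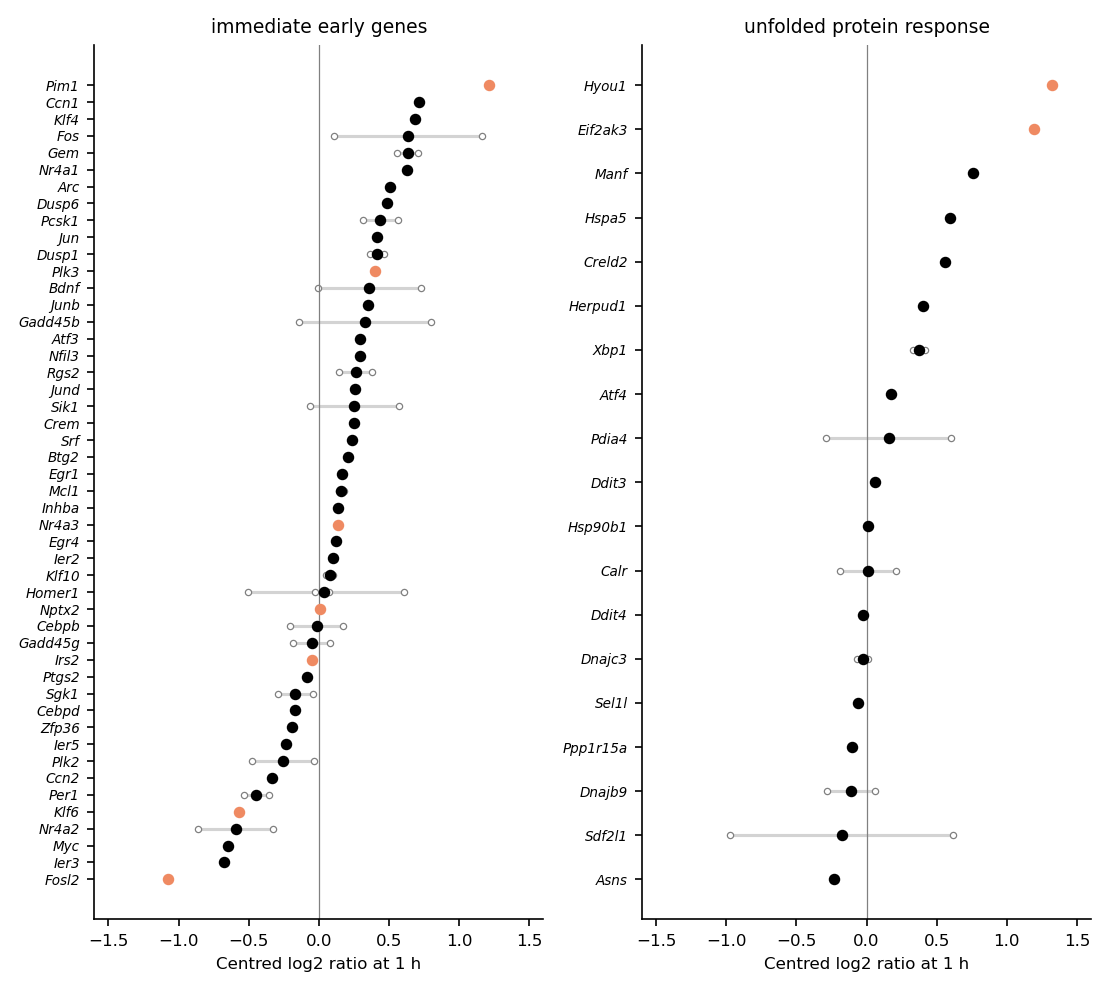
Centred log2 ratio at 1 h (horizontal axis) of every measured immediate early gene (left, 48 genes) and unfolded protein response gene (right, 19 genes). Large points are gene values, in black where a feature had a value on all 4 arrays and in orange otherwise, and small open points joined by a line are single features; Fos spans 0.11 to 1.17, and the top of the right panel, Hyou1 and Eif2ak3, is orange.

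Of the drug's own target, few parts were measured at 1 h. Grin2a read -0.20, Grin2b -0.44 and 0.41, and Grin2c -0.54 and 0.15 on their features, so for the latter subunits the sign itself depended on the feature. Grin2a had 1 feature, number 15655, which lies among the numbers 15600 to 15899 described above. Grin1, the obligatory subunit, had no value. Receptors for glutamate of the AMPA, kainate and metabotropic classes had a median of -0.15, with 4 of 12 genes positive. With a local median of 100 feature numbers subtracted, that median was -0.03. Gria3 read -0.48, Gria4 -0.36, Grm8 -0.68 and -0.34, and Grik1 -0.56, while Grik3 stood at 1.11 without a later value. Of 21 postsynaptic scaffolds and kinases, 6 were positive, 0 were at or above 0.5 and 3 at or below -0.5, with a median of -0.19. The shares over all genes were 49.6% positive, 7.52% at or above 0.5 and 5.36% at or below -0.5. Ppp3r1, the regulatory subunit of calcineurin, read -1.21 at 1 h and -0.15, -0.22 and -0.21 at 2, 4 and 6 h. Pick1, a scaffold that binds AMPA receptors, read -1.04 at 1 h and 0.20, 0.40 and 0.14 later. Prkce, a form of protein kinase C, read -0.51 at 1 h and 0.08, 0.06 and 0.08 later. The kinase Camk2a, with features at -0.80 and 0.40, shows how far features could part within this list.

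On the presynaptic side, synaptic vesicle genes had a median of -0.06, with 18 of 42 positive, 0 at or above 0.5 and 3 at or below -0.5. For this and the next lists, the shares over all genes were 49.6% positive, 7.52% at or above 0.5 and 5.36% at or below -0.5. After Doc2b, the lowest vesicle genes were Syt5, a synaptotagmin, at -0.76, Syn3 at -0.68 and Pclo at -0.47. GABA receptor and synthesis genes had a median of 0.12 with 13 of 18 positive, but -0.08 over the 12 measured on all 4 arrays. Their highest members, Gabbr1 at 0.87, Gabrr2 at 0.73 and Gabrb2 at 0.72, had no later value. Receptors for monoamines, acetylcholine and opioids had a median of 0.21 with 23 of 37 positive, 7 at or above 0.5 and 1 at or below -0.5. Over the 19 of them measured throughout, the median was 0.17. Htr1f, a serotonin receptor, was highest at 0.99 without a later value, and the adenosine receptor Adora3 read 0.53 and 0.83. Among 34 neuropeptide genes, with a median of 0.06, Nts at -1.75 stood alone at the low end, with Nppc next at -0.78, and Pomc was highest with 0.32 and 1.32.

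Marker lists of cell types differed little from the array as a whole, apart from a few. In bulk tissue, fewer cells of a type and less RNA per cell cannot be told apart. Granule cell markers had a median of -0.11 with 4 of 14 positive, and their lowest members were Igfbpl1 at -0.83 and the granule cell factor Prox1 at -0.57. With a local median of 100 feature numbers subtracted, the granule cell median was 0.008, so its sign depended on the processing. Markers of other hippocampal neurons had a median of -0.10, of astrocytes -0.07, of oligodendrocytes -0.03, of microglia and macrophages -0.01 and of choroid plexus -0.03. Ttr, the leading choroid plexus gene, read -0.20. Vessel markers had a median of -0.06 with 9 of 29 positive, and -0.21 over the 22 measured throughout. Cldn5, a tight junction protein of brain endothelium, read -1.05 at 1 h and 0.38, -0.0034 and 0.05 later. Sox17 stood at -0.66 and Abcb1a, a drug transporter of the blood-brain barrier, at -0.63. Blood markers went the other way, with a median of 0.23 and 13 of 15 positive. The alpha globin Hba-a1 read 0.24 and 0.29, the beta globin Hbb-b2 -0.02 and 0.43, and Car1, a carbonic anhydrase of red cells, 0.59. Cilium genes had a median of -0.16 with 5 of 24 positive, Ccdc39 being lowest at -0.86. The part of cell content in the gene results above was not tested.

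The housekeeping and signalling families named next had medians between -0.12 and 0.26. Cytosolic ribosomal proteins had a median of 0.13 with 34 of 50 positive and 1 at or above 0.5. Mitochondrial ribosomal proteins had -0.0031, respiratory chain subunits 0.03 and proteasome subunits 0.07. Histones were highest of all lists with 0.26, and 16 of 22 were positive. The histone genes H2bfm, H1f1 and H2ac10, at 1.12, 1.08 and 1.06, had no later value. Histone genes are alike in sequence, so their features may not tell members apart. Over the 14 measured throughout the median was 0.13. Cytokines and their receptors had 52 of 80 positive, 13 at or above 0.5 and a median of 0.12, which was 0.01 over the 50 measured throughout. Over all genes, 49.6% were positive and 7.52% stood at or above 0.5. Ccl20 at 0.81 led the cytokine list without a later value. Genes that respond to glucocorticoids had a median of -0.12, with the receptor gene Nr3c1 lowest at -0.80 and Pdk4 highest at 0.57, while Fkbp5 read 0.37. Clock genes had a median of -0.01 with Dbp at 0.84 and Rora at -0.66. On the features of Rora measured on all 4 arrays, the 1 h value lay above the mean of the later times. Among antioxidant genes, with a median of 0.08, Srxn1, which repairs peroxiredoxins, read 1.04 and catalase (Cat) -0.61. Of the 66 lists with at least 5 measured genes, counting only features measured on all 4 arrays moved 11 medians by at least 0.1 and turned the sign of 11, some of them close to 0 under both settings.

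**Figure D4:**
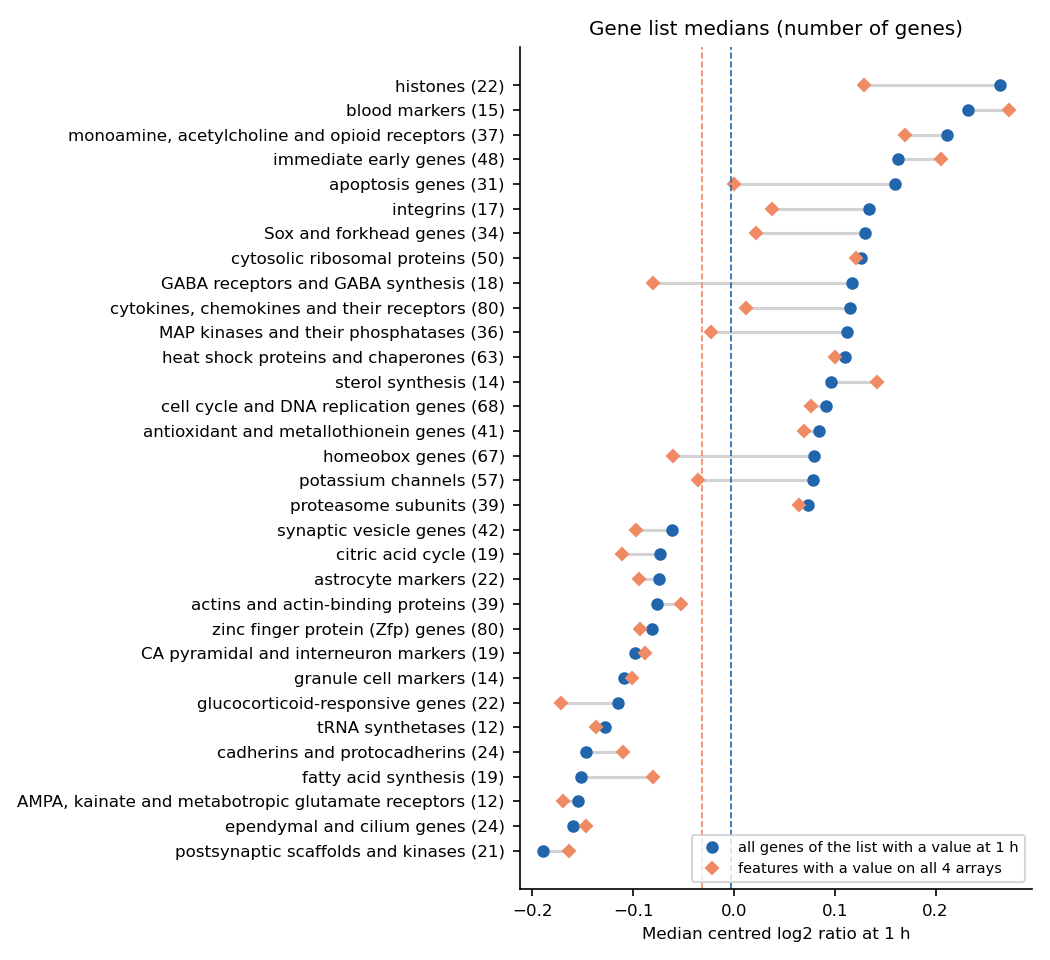
Median centred log2 ratio at 1 h (horizontal axis) of the 14 lowest and 18 highest lists (vertical axis, number of genes in brackets). Circles use all genes with a value at 1 h, diamonds only features with a value on all 4 arrays, and dashed lines mark the medians over all genes; histones drop from 0.26 to 0.13 and GABA genes from 0.12 to -0.08, while blood markers and immediate early genes stay above 0.

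What set 1 h apart from the later times was tested with limma, as the 1 h ratio minus the mean of the 2, 4 and 6 h ratios. The later arrays stood in for replicates, and the lone 1 h array was assumed to vary as they did. Features of a gene measured on all 4 arrays differed on average by 0.30 at 1 h and by 0.24, 0.26 and 0.23 later, so on this measure the 1 h array varied more than assumed and adjusted p-values may be too small. A dye bias that is the same on every array cancels in this difference. Of 6661 genes with a value on all 4 arrays, 352 (5.28%) were higher at 1 h and 416 (6.25%) were lower at an adjusted p below 0.05 (Benjamini-Hochberg). Without the 2 h array the counts were 574 and 755, and without the 6 h array they were 191 and 156. Arrays brought to equal spread gave 98 and 55, quantile normalisation gave 181 and 144, and reading exact 0 as a value gave 206 and 283 over the same 6661 genes, or 647 and 438 over the 10698 genes it allows. The number of calls thus depended strongly on which array or scaling was used. Of the genes called higher, 300 had a positive ratio at 1 h and a negative mean later, and 363 of those called lower had the opposite.

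Several genes called higher were low later rather than high at 1 h. Chst4, a sulfotransferase, read 0.43 at 1 h and -2.43, -2.52 and -2.68 at 2, 4 and 6 h. The difference was 2.97 ± 0.14 (SE) with an adjusted p of 0.00436 in limma. Clca1, Atp4a (the gastric proton pump) and Gabrr1 (a GABA receptor subunit) showed the same, with ratios between -0.11 and 0.11 at 1 h and below -2 afterwards. Btc, Kl and Slc1a6 were milder cases, with later values between -1.31 and -1.64. Those values are means of 2 features for each gene, and the features are not given singly here. Each of these genes passed in 9 of 10 alternative settings. In the remaining setting the difference of Kl and of Slc1a6 changed sign, so it depended on the processing. Ctnnd1, a catenin, was both, with 0.61 at 1 h and -0.71, -0.78 and -0.85 later. Only features with a value on all 4 arrays entered the test. For Chst4, Clca1, Gabrr1 and Ctnnd1 this was 1 of the 2 features measured at 1 h, and for Kl 2 of 3. Naa50, an acetyltransferase subunit, read 1.05 at 1 h and -0.26, -0.32 and -0.19 later, and Lce1d 1.04 at 1 h and -0.26, -0.13 and -0.25 later. Naa50 and Lce1d, by contrast, had high ratios at 1 h and values near 0 later, and both passed in 10 of 10 alternative settings. In all, 147 of the 352 genes were at or above 0.5 at 1 h, and 27 had a later mean at or below -1.

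Of the 416 genes called lower, 202 were at or below -0.5 at 1 h, 214 lay between -0.5 and 0.5, and 0 were at or above 0.5. Nts led them with a difference of -2.11 ± 0.13 (SE) and an adjusted p of 0.00745 in limma, and it passed in 9 of 9 alternatives. Entpd2, an enzyme that breaks down extracellular ATP, differed by -1.37 ± 0.11 (SE) and read 0.41, 0.36 and 0.35 later. Rfc4 read -1.33 at 1 h and 0.16, -0.01 and 0.13 later. Both passed in 10 of 10 alternatives. Whrn, a scaffold of hair cells and synapses, read -0.81 at 1 h and 0.59, 0.56 and 0.53 later. Slc25a1, the mitochondrial citrate carrier, read -0.82 at 1 h and 0.21, 0.25 and 0.22 later. Shc3, a neuronal adaptor of receptor kinases, read -0.47 at 1 h and 0.58, 0.56 and 0.55 later. Sntb2, Mapk12, Micalcl and 5730522E02Rik completed the leading 10. For Sntb2, Mapk12 and Shc3 the test used 1 of the 2 features measured at 1 h, the other lacking a later value.

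Immediate early genes were called higher at 1 h in 9 of 41 tested cases (5.28% of all genes) and lower in 0 (16 and 2 at an unadjusted limma p under 0.05). At the unadjusted threshold 1004 of all 6661 genes were higher and 1316 lower. The 9 called genes were Arc, Ccn1, Dusp6, Egr1, Fos, Gem, Junb, Nr4a1 and Sik1. The difference was 0.89 ± 0.13 (SE) for Nr4a1 with an adjusted p of 0.0215, 0.65 ± 0.13 for Arc with 0.0353, 0.61 ± 0.11 for Junb with 0.0290 and 0.69 ± 0.15 for Egr1 with 0.0404, all by limma. Nr4a1 passed in 7 of 9 alternatives, Junb in 7 of 10 and Arc and Egr1 in 5 of 10. For Fos it was 1.17 ± 0.11 with an adjusted p of 0.0140, resting on the feature described above. Jun with 0.0522 and Dusp1 with 0.0595 fell just outside the limma threshold on the adjusted p. Without features 15600 to 15899, 6 of the 36 genes left passed. Nr4a1 and Ccn1 then had no feature, and Fos did not pass, with an adjusted p of 0.582 in limma. Under the other alternatives the count ranged from 2, with arrays of equal spread, to 12, without the 2 h array, where 2 were lower, and it was 4 without the 6 h array and 5 without the 4 h array. Whether the list differs from genes in general was not tested.

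Glutamate receptor, postsynaptic and vesicle genes gave limma calls on the low side only. At an unadjusted p under 0.05, 1, 0 and 1 of them were higher and 4, 6 and 13 lower. Over all 6661 genes, 1004 were higher and 1316 lower at that threshold. On the adjusted p, Gria3, Gria4 and Grm8 of 11 receptors and Ppp3r1, Pick1 and Prkce of 20 postsynaptic genes were lower at 1 h. So were Doc2b, Rab3b, Stx1a and Syt5 of 35 vesicle genes, against 6.25% of all genes. Only features with a value on all 4 arrays entered these calls. Averaged over all its features with a value, Doc2b read -0.87 at 1 h and 0.25, -1.37 and -1.19 at 2, 4 and 6 h. On that average it was not lower at 1 h than at 4 or 6 h. Over the alternatives the calls numbered 0 to 4 for the receptors, with 1 called higher under the local median, 1 to 3 for the postsynaptic genes and 3 to 6 for the vesicle genes. The receptor calls were 0 with exact 0 as a value and 1 with equal spread or quantile normalisation. The difference was -1.01 ± 0.11 (SE) for Ppp3r1 and -1.29 ± 0.14 for Pick1, both with an adjusted p of 0.0140 in limma. Among vessel markers 5 of 22 were lower and 0 higher in limma (12 and 1 at an unadjusted p under 0.05), namely Cldn5, Abcb1a, Egfl7, Sox18 and Vtn, but with arrays of equal spread 0 were lower and without the 2 h array 9 were lower and 2 higher. Without the 6 h array, 2 were lower, as they were without the 4 h array. Blood markers gave 1 call in 11 genes, Car1, which was higher at 1 h, against 5.28% of all genes. Ribosomal proteins gave 0 calls by limma in 40 genes, with 1 higher and 0 lower at an unadjusted p under 0.05. Prox1, with a difference of -0.85 ± 0.22 and an adjusted p of 0.0562 in limma, did not pass, nor did Grin2a, Grin2b, Bdnf, Homer1, Ier2, Nr4a2, Fkbp5 and Sgk1.

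**Figure D5:**
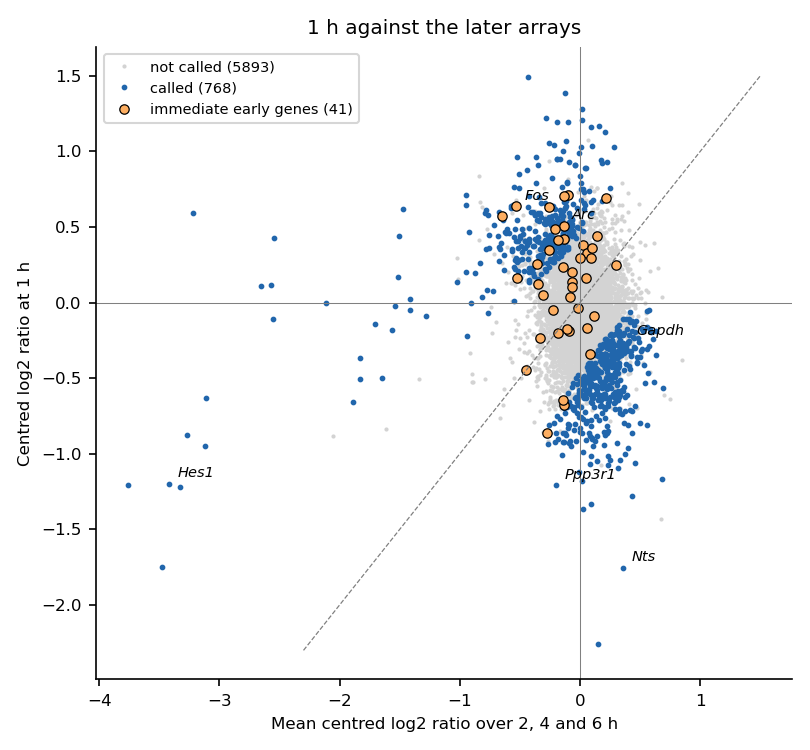
Centred log2 ratio at 1 h (vertical axis) against the mean over 2, 4 and 6 h (horizontal axis) for the 6661 genes with a value on all 4 arrays. Blue points passed the limma test of the difference (768 genes), grey points did not, orange points are the 41 immediate early genes, and the dashed line marks equal values; Nts lies at -1.75 on the vertical axis right of 0, while a scatter of genes far left has low later means.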

How the data were processed

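The series matrix value table held 1 column for each of 4 two-colour arrays. Per the labels, Cy3 carried saline RNA and Cy5 MK-801 RNA. The deposited values are log2 ratios on the working reading. The authors' scanning, background correction and normalisation are not given in the sources used here, and base, direction and dye effects stay unknown. Exact 0 was taken as no value, array medians were subtracted and features of a gene were averaged. For limma only the features with a value on all 4 arrays were averaged. Of 16281 features, 13738 had 1 symbol, 52 several and 2491 none in the platform annotation, and 13694 matched GRCm38.p6 by Entrez identifier. Calls used lmFit and eBayes of limma 3.58.1 in R 4.3.3, two-sided, with the Benjamini-Hochberg threshold at 0.05, tested on simulated data first. The simulated 1 h values were given the spread of the later arrays. The simulation therefore could not check whether the real 1 h array varied as they did. P-values rest on how arrays of different times varied, which may be technical. Single ratios have no test. The members, the 67 gene lists and the tests were chosen with earlier results of these data known. Named were the 15 highest and 15 lowest genes with features of the same sign, the 10 highest and 10 lowest with 1 feature, up to 4 members at each end of a list, the leading 10 of each limma direction and 22 genes always given, of which 17 had a value; other genes in the text, including some list members that passed the test, were chosen after their values were seen. Alternatives covered centring, averaging, missing values, normalisation, log base, dropped arrays and, chosen after seeing the data, feature number.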

Additional observations from a re-analysis of the deposited data

Results flagged for a closer look

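At 1 h, 352 genes were higher and 416 lower than the mean of the later times in limma, the difference itself being the test. Among them the differences were 2.97 for Chst4, 2.69 for Clca1, 2.76 for Atp4a, 2.44 for Gabrr1, 1.68 for Btc, 1.52 for Kl, 1.44 for Slc1a6 and 1.39 for Ctnnd1, all of which had low ratios later, Ctnnd1 with a ratio of 0.61 at 1 h as well. They were 1.31 for Naa50 and 1.26 for Lce1d, which were high at 1 h. On the low side they were -2.11 for Nts, -1.42 for Rfc4, -1.39 for Sntb2, -1.37 each for Whrn, Entpd2 and Micalcl, -1.23 for Mapk12, -1.15 for 5730522E02Rik, -1.04 for Slc25a1 and -1.03 for Shc3. Of genes always given, Fos differed by 1.17, Nr4a1 by 0.89, Egr1 by 0.69, Arc by 0.65, Junb by 0.61 and Gapdh by -0.66. Later values below -2 were shared by Chst4, Clca1, Gabrr1 and Atp4a. The features of the first 3 have nearby numbers, 16861, 16943 and 16881, and that of Atp4a has number 7495.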

How the results depend on the processing

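No paired analysis was possible because each time has 1 array and no replicate numbers. Of the features at or above 1, 28 remained with features on all 4 arrays, and reading the values as natural logarithms gave 552. At or below -1 the counts were 31 and 295. For genes at or above 1 they were 18 and 324, with 1 among genes with at least 2 features. For genes at or below -1, natural logarithms gave 170, and 0 genes with several features reached it. Higher calls in limma numbered 98 with arrays of equal spread, 181 with quantile normalisation, 647 with exact 0 as a value over the 10698 genes this allows (206 over the same 6661 genes), and 191 to 574 when 1 later array was left out. Lower calls numbered 55 with equal spread, 144 with quantile normalisation, 438 with exact 0 as a value (283 over the same genes), and 156 to 755 when 1 later array was left out. Of the 768 calls, 153 were kept in direction with equal spread, 323 with quantile normalisation, 244 with exact 0 as a value, 762 without 2 h, 496 without 4 h and 320 without 6 h. Subtracting a local median of 100 feature numbers, or leaving out features 15600 to 15899, both chosen after seeing the data, kept the counts within 1.5 times and turned the sign of 15 and 1 of 66 list medians. Without centring, 4 turned. Reading exact 0 as a value moved 9 of the 66 list medians by at least 0.1. Under that setting the median was 0.04 for blood markers and 0.095 for histones. It was 0.0 for monoamine, acetylcholine and opioid receptors and 0.0 for cytosolic ribosomal proteins. The local median moved 2 of the list medians by at least 0.1. These were the granule cell markers and the AMPA, kainate and metabotropic glutamate receptors. NMDA receptor subunits had too few measured genes for a list median. Depth is not known for ratios, and 1 array limits the precision.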
